A study of Mus musculus with 18 samples.

Results

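Genes that carry or lie near Alzheimer's disease risk variants in people, and that microglia are known to express, were followed in RNAseq of Cx3cr1-NuTRAP mouse brain. The members, chosen by gene symbol, were Bin1, Picalm, Cd2ap, Inpp5d, Plcg2, Abi3, Ptk2b, Sorl1, Clu and Abca7, which are 10 of the 36172 genes in the deposited matrix. All mice were Cx3cr1-cre/ERT2+; NuTRAP+, in which tamoxifen (100 mg/kg daily for 5 days from about 3 months of age) starts production of a ribosomal protein fused to EGFP wherever the Cx3cr1 promoter is active. At 3 to 4 weeks after tamoxifen, 4 mice (2 female, 2 male) received PBS and 5 mice (4 female, 1 male) received 5 mg/kg LPS (lipopolysaccharide, from the Gram-negative bacterial envelope) by intraperitoneal injection, and brain tissue was taken 24 h later. A part of each lysate was kept as input, and an antibody against GFP captured the tagged ribosomes of the rest, which gave the positive fraction (translating ribosome affinity purification, TRAP).

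The comparison used 17 libraries, namely 8 inputs (4 PBS, 4 LPS) and 9 positive fractions (4 PBS, 5 LPS). They held 22968939 to 35123345 counts each, whereas the input library of LPS animal 271 held 1252 counts and was left out. Values below are normalised counts, which are deposited counts divided by a library size factor. The 8 microglia markers were together 18.2 ± 2.46 times higher in the positive fraction than in input in PBS animals (SD, n = 4), and the 7 oligodendrocyte markers were at 0.235 ± 0.0318 of their input level. The 7 neuron markers measured here had a ratio of 1.06 ± 0.0405 as a sum. Of the 7, 2 were called higher and 0 lower, and their median log2 fold change was -0.07. Gad1 had means of 14326 in input and 26231 in the positive fraction, against 72526 and 68354 for Snap25. The 8 astrocyte markers had one of 1.17 ± 0.169, a sum led by Slc1a2 (mean 59366 in input and 87728 in the positive fraction), while 4 of the 8 were called lower and 1 higher and their median log2 fold change was -0.34. Transcripts typical of neurons and astrocytes were thus present in the positive fraction. The Cx3cr1 promoter is also used by macrophages at the brain's borders and by blood monocytes; the wait after tamoxifen was meant to let short-lived labelled monocytes turn over. The 5 border macrophage markers were 13.9 ± 3.57 times higher in the positive fraction.

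Microglia are the resident macrophages of the brain, and the products of these genes act along the routes by which such cells take in, sort and respond to material. Bin1, Picalm and Cd2ap shape membranes and couple endocytosis to actin. Inpp5d and Plcg2 act on membrane phosphoinositides downstream of immune receptors that signal through the Tyrobp adaptor, with opposite effects on that signal. Abi3 belongs to an actin-regulating complex and Ptk2b is an adhesion kinase, while Sorl1, Clu and Abca7 handle protein sorting, extracellular chaperoning and lipid transport.

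Promoter sequences from RefSeq (GRCm38.p6) were matched for 6 of the 10 genes, as 7 windows of 250 bases immediately upstream of a start site. Of these, 3 are printed, 5′ to 3′ on the strand of the gene, because Inpp5d and Plcg2 stood highest above input and Picalm stood above its own paralog by an intermediate amount. Capitals mark the match to AGGAAGT, a form of the ETS motif that PU.1, the myeloid lineage factor, can bind.
Inpp5d: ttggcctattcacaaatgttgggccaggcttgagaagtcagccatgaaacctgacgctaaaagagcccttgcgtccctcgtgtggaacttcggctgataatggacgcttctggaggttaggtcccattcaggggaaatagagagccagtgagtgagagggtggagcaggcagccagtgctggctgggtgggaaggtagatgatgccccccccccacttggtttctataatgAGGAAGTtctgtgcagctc
Plcg2: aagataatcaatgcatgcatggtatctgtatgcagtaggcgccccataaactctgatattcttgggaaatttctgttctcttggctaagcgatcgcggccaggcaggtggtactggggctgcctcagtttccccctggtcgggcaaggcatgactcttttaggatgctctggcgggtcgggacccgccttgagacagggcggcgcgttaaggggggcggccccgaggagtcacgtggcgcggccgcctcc
Picalm: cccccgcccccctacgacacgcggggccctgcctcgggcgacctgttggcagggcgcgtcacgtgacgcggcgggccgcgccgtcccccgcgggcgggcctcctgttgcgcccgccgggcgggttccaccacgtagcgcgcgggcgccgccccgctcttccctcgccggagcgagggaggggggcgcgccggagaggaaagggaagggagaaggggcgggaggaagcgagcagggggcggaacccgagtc
The windows lie at chr1:87620062-87620311 (Inpp5d), chr8:117498025-117498274 (Plcg2) and chr7:90129963-90130212 (Picalm), all on the plus strand. On both strands of the 7 windows, AGGAAGT was found once, in Inpp5d at bases -19 to -13 from the start site, and it occurs in 7.69% of 32851 mouse promoter windows of the same length. Neither a kappaB form (present in 1.21% of all windows) nor an interferon response form (2.98%) was found in the 7 windows. The windows of these genes had a median GC content of 59.6% and a median of 17 CpG dinucleotides, against 52.4% and 6 over all windows. Picalm (79.2% GC, 39 CpG) and Cd2ap (76.4% GC, 31 CpG) were at the GC-rich end, and Inpp5d (54.4% GC, 5 CpG) held the fewest CpG dinucleotides of the 7.

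The first question was whether each transcript was higher in tagged ribosomes than in the whole brain lysate of PBS-injected animals. A gene was called at an adjusted p under 0.05 in edgeR's quasi-likelihood test with Benjamini-Hochberg adjustment over 14803 genes and a log2 fold change beyond 0.32 in either direction. In PBS animals 6 of the 10 genes were called above input and 0 below it, while 39.8% of all genes tested were called in either direction. The median log2 fold change was 0.67 over the 10 genes and 0.00 over all genes tested. The genes that rose were Inpp5d, Plcg2, Abi3, Picalm, Cd2ap and Bin1.

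Inpp5d encodes SHIP1, a phosphatase that removes the 5-phosphate of PIP3 and restrains receptor signalling. It was at 463, 418, 413 and 480 normalised counts in the 4 PBS inputs (animals 268, 272, 273 and 506) and at 7771, 5924, 5316 and 7837 in the positive fractions of the same animals. Every positive library lay far above every input library, and the log2 fold change was 3.92 (SE 0.15, adjusted p = 1.51e-12). Plcg2, the phospholipase that cleaves PIP2 downstream of Syk, was at 162, 184, 149 and 172 in input and at 2344, 2035, 1911 and 2054 in the positive fraction of those animals. Its groups were as widely separated (log2 fold change 3.64, SE 0.09, adjusted p = 1.84e-14). Abi3, a subunit found in WAVE-type actin complexes, was at 718, 922, 862 and 698 in input and at 3290, 3695, 3847 and 3753 in the positive fraction (log2 fold change 2.19, SE 0.13, adjusted p = 2.79e-10). It was thus clearly separated between fractions, but less so than Inpp5d and Plcg2.

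The endocytic genes were higher in the positive fraction by smaller amounts. Picalm, a clathrin assembly protein that recruits endocytic cargo, was at 4766, 4860, 4459 and 4713 in PBS input and at 12417, 9224, 10162 and 12051 in the positive fraction. The fractions did not overlap, and the log2 fold change was 1.22 (SE 0.09, adjusted p = 5.94e-09). Cd2ap, an adaptor that ties membrane receptors to actin, was at 982, 898, 1063 and 1079 in input and at a narrow 1672, 1617, 1690 and 1723 in the positive fraction (log2 fold change 0.74, SE 0.11, adjusted p = 2.47e-05). Bin1, a BAR-domain protein that bends membranes, was at 7906, 9507, 8886 and 7798 in input and at 12016, 12911, 13086 and 13945 in the positive fraction (log2 fold change 0.61, SE 0.12, adjusted p = 0.000469). For Cd2ap and Bin1, too, each positive library lay above each input library.

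The other 4 genes did not rise in the positive fraction of PBS animals. Ptk2b (PYK2, a calcium-activated relative of focal adhesion kinase) was at 11239 ± 606 in input and 10783 ± 832 in the positive fraction (SD, n = 4 each), a log2 fold change of -0.06 with a 95% interval of -0.22 to 0.10. Clu, which encodes the secreted chaperone clusterin, was at 19310 ± 2128 and 18230 ± 1173, with an interval of -0.27 to 0.10. Abca7, an ABC-family lipid transporter, was at 1125 ± 222 and 902 ± 302 (interval -0.89 to 0.25). For these 3 genes the libraries of the fractions overlapped. Sorl1, a sorting receptor that carries cargo between endosomes and the Golgi, was at 5577 ± 1699 in input and 4308 ± 917 in the positive fraction. Its log2 fold change of -0.37 (SE 0.18, adjusted p = 0.0923 with edgeR) did not pass the test as fitted without pairing, whereas with each animal as a block the same test gave -0.34 (SE 0.09, adjusted p = 0.00351). It also passed without positive library 268 (-0.48) or input library 272 (-0.53).

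Within an animal, the ratio of positive to input count ordered the genes. In PBS animals Inpp5d (15.1 ± 1.82, SD, n = 4) and Plcg2 (12.5 ± 1.49) led, and their ranges over animals overlapped. Abi3 followed at 4.61 ± 0.57 and Picalm at 2.34 ± 0.326, each with a range apart from its neighbours. Cd2ap (1.67 ± 0.0984) and Bin1 (1.53 ± 0.183) overlapped each other and lay above Ptk2b (0.96 ± 0.0776). Ptk2b, Clu (0.952 ± 0.115), Sorl1 (0.796 ± 0.132) and Abca7 (0.792 ± 0.129) overlapped in turn. Sorl1 and Abca7 were below 1 in 4 of 4 PBS animals. Beside these, the summed microglia markers ranged from 15.2 to 20.4 over the same animals and the border macrophage markers from 10.2 to 17.2. Inpp5d (12.9 to 16.8) overlapped both ranges and Plcg2 (11 to 14.5) only the latter. Ptk2b (0.872 to 1.06) and Clu (0.783 to 1.04) overlapped the 1.01 to 1.09 of the neuron markers. They also overlapped the 0.996 to 1.38 of the astrocyte markers, as did the low end of Bin1. The endothelial markers ranged from 2.67 to 2.94 in PBS animals, above Picalm (1.9 to 2.61), Cd2ap (1.59 to 1.8) and Bin1 (1.36 to 1.79). The RNA polymerase and reference genes as a sum ranged from 1.43 to 1.69, which overlapped Cd2ap and Bin1. That sum was led by Actb (mean 28583 in PBS input and 58028 in the positive fraction). Gapdh (27713 and 34121), Hprt (3681 and 4653) and Polr2a (2762 and 3462) rose less, and Tbp (495 and 423) did not rise. Of these 5 genes 2 were called higher and 0 lower. The cells that gave the transcripts were not tested.

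**Figure D1:**
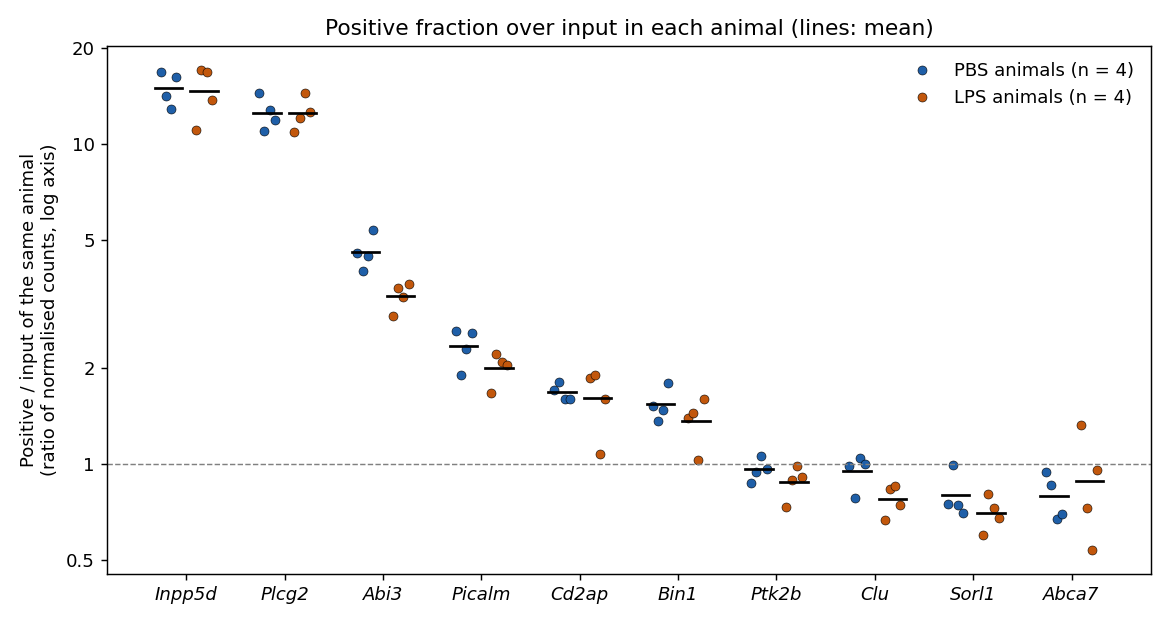
Ratio of positive to input normalised counts on a log axis for each gene, with a point per animal (blue PBS, n = 4; orange LPS, n = 4) and a line at the mean. Inpp5d and Plcg2 sit above 10 in all 8 animals, Abi3 between 2.9 and 5.38, and Ptk2b, Clu, Sorl1 and Abca7 lie between 0.538 and 1.32.

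Levels between genes were compared per kilobase of exon (GENCODE vM21 basic transcripts, union of exons). In PBS input the order was Clu (10669 ± 1176 normalised counts per kilobase), Bin1 (3495 ± 335), Ptk2b (2786 ± 150), Picalm (572 ± 20.9), Sorl1 (521 ± 159), Abi3 (200 ± 27.3), Cd2ap (186 ± 15.4), Abca7 (167 ± 32.8), Inpp5d (89.1 ± 6.72) and Plcg2 (38.8 ± 3.45). Picalm and Sorl1 did not differ beyond their spread, nor did neighbours among Abi3, Cd2ap and Abca7. Inpp5d and Plcg2 were thus the lowest of the 10 in whole lysate. In the positive fraction of PBS animals Inpp5d (1348 ± 258 per kilobase) was level with Picalm (1335 ± 186) and above Abi3 (910 ± 61.3), and Plcg2 (485 ± 42.6) was level with Sorl1 (402 ± 85.6). Clu (10072 ± 648), Bin1 (5326 ± 324) and Ptk2b (2673 ± 206) stayed at the top, and Cd2ap (310 ± 8.2) and Abca7 (134 ± 44.7) at the bottom.

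**Figure D2:**
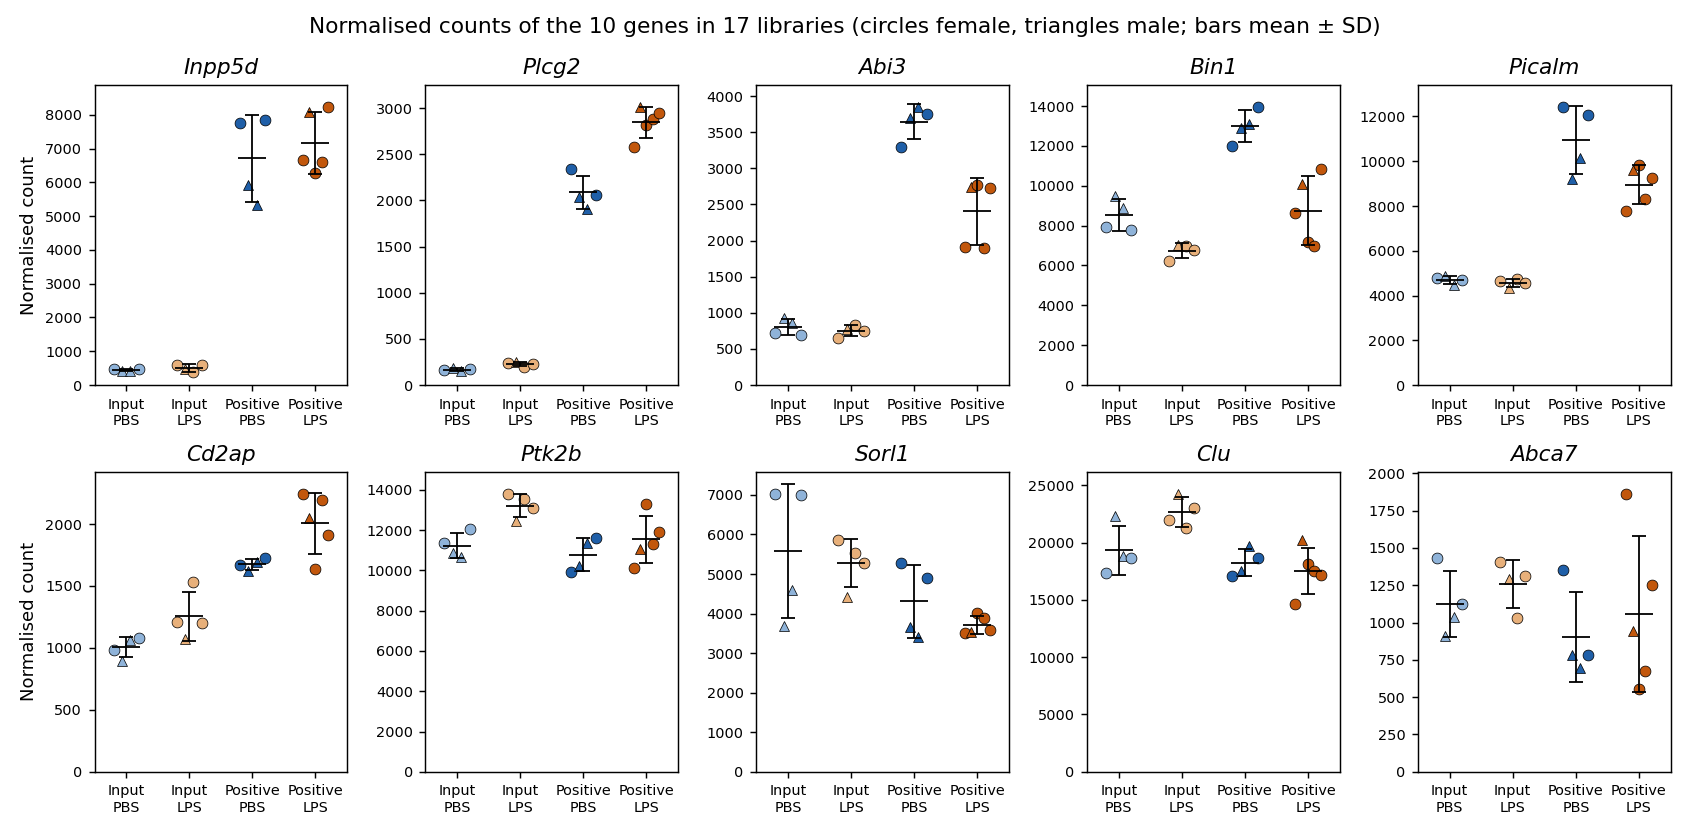
Normalised counts in each of the 17 libraries (y axis from 0), by fraction and treatment, with circles for female and triangles for male animals and bars for the mean ± SD. Inpp5d, Plcg2 and Abi3 are low in input and high in the positive fraction, Plcg2 is higher and Bin1 and Abi3 are lower after LPS in the positive fraction, and Ptk2b and Clu are high in all groups.

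The second question was whether LPS moved these transcripts in tagged ribosomes. Of the 10 genes 3 were called in the positive fraction, Plcg2 higher and Bin1 and Abi3 lower, which is a share near the background of 33.8% of all genes tested. The median log2 fold change was 0.02 over the 10 genes and 0.01 over all genes tested. In bulk fractions such as these, fewer cells of a type and less RNA per cell cannot be told apart.

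Plcg2 was at 2344, 2035, 1911 and 2054 normalised counts in the PBS positive fractions and at 2574, 3010, 2815, 2880 and 2945 in the LPS ones (animals 266, 267, 270, 271 and 507). All 5 LPS libraries were above all 4 PBS libraries, and the log2 fold change was 0.45 (SE 0.08, adjusted p = 0.000351). Its partner in phosphoinositide turnover, Inpp5d, was at 6650, 8071, 6273, 6602 and 8225 after LPS, within and slightly beyond the PBS range. Inpp5d did not pass the test (log2 fold change 0.09, 95% interval -0.18 to 0.37, adjusted p = 0.616).

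Abi3 was at 3290 to 3847 in the PBS positive fractions and at 1910, 2745, 2767, 1892 and 2723 after LPS. No LPS library reached the PBS range, and animals 266 and 271 were lowest. The log2 fold change was -0.60 (SE 0.12, adjusted p = 0.000843). Ptk2b, the other adhesion and actin gene, was at 10128 to 13294 after LPS with a median of 11309 and overlapped the PBS libraries (log2 fold change 0.10, 95% interval -0.05 to 0.25).

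Bin1 fell to a like extent, from 12016, 12911, 13086 and 13945 in PBS to 8630, 10099, 7165, 6994 and 10853 after LPS. The groups did not overlap, the LPS libraries were the more widely spread, and the log2 fold change was -0.57 (SE 0.11, adjusted p = 0.000602). Picalm was at 7790, 9592, 9849, 8306 and 9251 after LPS against 9224 to 12417 in PBS. Its adjusted p was 0.0137, but its log2 fold change of -0.29 (SE 0.09) was under the fold threshold and the groups overlapped. It passed both thresholds when LPS library 270 or PBS library 272 or 273 was left out (log2 fold change -0.32, -0.37 and -0.33). Cd2ap was at 1617 to 1723 in PBS and at 2243, 2045, 1636, 2195 and 1910 after LPS, where 4 of 5 libraries were above the PBS range. Its log2 fold change of 0.26 (SE 0.10, adjusted p = 0.0512) did not pass the test with all libraries and passed it without LPS library 270 (0.33, adjusted p = 0.0119).

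The lipid and sorting genes were not called for LPS in the positive fraction. Sorl1 was at 5270, 3654, 3405 and 4902 in PBS and in the narrower range of 3509 to 4009 after LPS (log2 fold change -0.22, 95% interval -0.54 to 0.11, adjusted p = 0.313). Sex was unevenly spread over the treatments, and with sex as a covariate edgeR gave -0.32 (SE 0.11, adjusted p = 0.0216), just under the fold threshold. Clu was at 17105 to 19692 in PBS and 14654 to 20211 after LPS (interval -0.23 to 0.12). Abca7 was the most variable of the 10 genes, at 1351, 780, 695 and 782 in PBS and at 1862, 941, 554, 673 and 1254 after LPS. With that spread its interval, -0.32 to 0.77, includes changes in either direction.

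Among the other cell lists, several moved with LPS in the positive fraction as well. The summed border macrophage markers ranged from 4218 to 8623 in PBS and from 3073 to 5331 after LPS, with 3 of 5 genes called lower, and the endothelial markers from 4807 to 6969 and from 4355 to 6708, with 3 of 6 called lower and 1 higher. The neutrophil list, of which 3 of 8 genes were tested and 3 were called higher, ranged from 22.9 to 130 and from 306 to 794, with Ly6g and Elane under a mean of 3 normalised counts in every group. The microglia list as a sum overlapped (182258 to 224696 in PBS, 152832 to 211764 after LPS), with 2 of 8 genes called higher and 3 lower. The neuron markers ranged from 178530 to 205506 in PBS and from 137834 to 185121 after LPS, with 3 of 7 genes called lower. The oligodendrocyte markers ranged from 24317 to 32073 and from 21186 to 30766, with 2 of 7 called lower. The astrocyte markers ranged from 106518 to 156282 and from 113763 to 134661, with 2 of 8 called higher and 1 lower. The part of these other cells in the values of Plcg2, Abi3 and Bin1 was not tested.

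**Figure D3:**
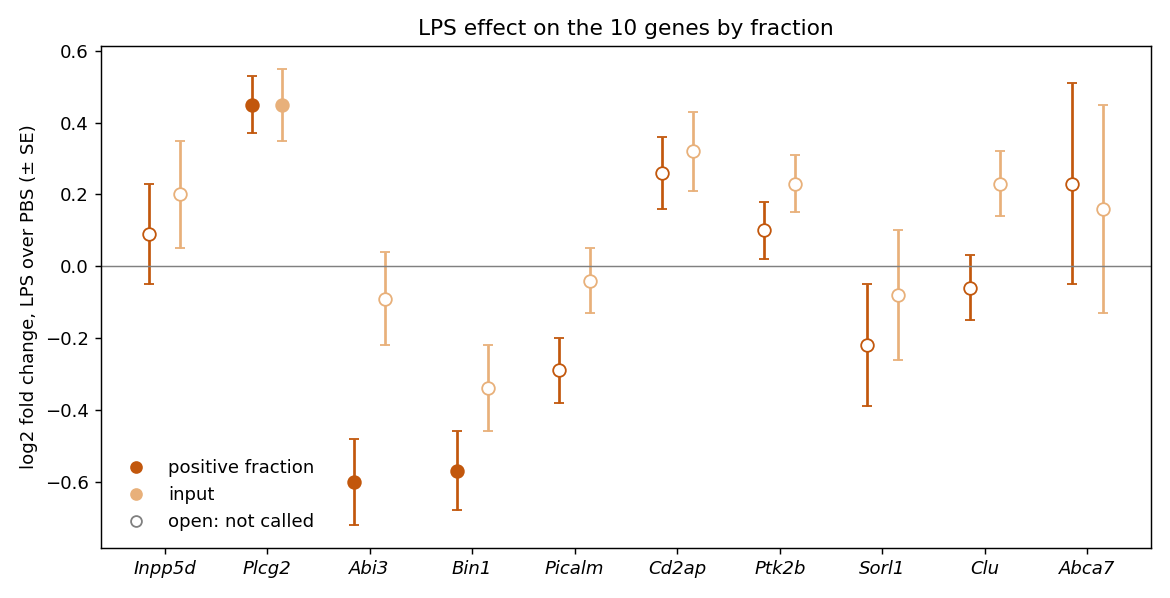
Fitted log2 fold change of LPS over PBS (± SE) for each gene in the positive fraction (dark) and in input (light), filled where called. Plcg2 is at 0.45 in both fractions, Abi3 at -0.60 and Bin1 at -0.57 in the positive fraction, and the remaining genes are not called in either.

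In input, 1 of the 10 genes was called for LPS, against 12.4% of all genes tested, and that gene was Plcg2. It was at 162, 184, 149 and 172 normalised counts in PBS input and at 235, 248, 194 and 233 in LPS input (animals 266, 267, 270 and 507). The groups did not overlap, and the log2 fold change was 0.45 (SE 0.10, adjusted p = 0.00405), the same size as in tagged ribosomes. Bin1 was at 7798 to 9507 in PBS input and at 6216, 7004, 6981 and 6771 after LPS. These did not overlap either, but the log2 fold change of -0.34 (SE 0.12, adjusted p = 0.0694) did not pass with all 17 libraries in the fit. With the 8 input libraries alone edgeR gave an adjusted p of 0.0083, and it also passed without positive LPS library 270, 271 or 507 (adjusted p = 0.0474, 0.043 and 0.0434). Over all alternatives the adjusted p ran from 0.0083 to 0.192. Beside it, the 7 oligodendrocyte markers summed to 103383 to 162972 in PBS input and 66510 to 95129 in LPS input, with 6 of 7 called lower. Oligodendrocytes also express Bin1, and their part in the input values was not tested.

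The adjusted p-values of Ptk2b and Cd2ap in input were near their threshold. Ptk2b was at 11373, 10864, 10684 and 12037 in PBS input and at 13803, 12463, 13551 and 13088 after LPS, without overlap (log2 fold change 0.23, SE 0.08, adjusted p = 0.0662 with edgeR). Its log2 fold change was also under the fold threshold. Cd2ap was at 982, 898, 1063 and 1079 and at 1212, 1074, 1530 and 1198 (log2 fold change 0.32, SE 0.11, adjusted p = 0.0592), and it passed without LPS input 267 (0.39, adjusted p = 0.03). Clu was at 17356, 22339, 18857 and 18688 in PBS input and 22008, 24245, 21304 and 23052 after LPS (log2 fold change 0.23, adjusted p = 0.112), while the summed astrocyte markers ranged from 106025 to 112897 and from 117964 to 130497. That rise was in Gfap (mean 7408 to 31173), and over the 8 astrocyte markers 3 were called higher and 1 lower with a median log2 fold change of -0.06. Picalm, Inpp5d, Abi3, Sorl1 and Abca7 had intervals in input that include 0; that of Abi3 was -0.35 to 0.17 and that of Picalm -0.22 to 0.14.

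A direct test asked whether the LPS effect differed between the fractions. With no block, 0 of the 10 genes were called by edgeR, DESeq2 or limma, against 6.88% of all genes tested in edgeR (1018 genes, or 1915 with the animal as a block), and 2 genes (Abi3 and Clu) had an unadjusted p under 0.05. For Abi3 the LPS effect was lower in the positive fraction than in input (log2 difference -0.51, SE 0.18, adjusted p = 0.108). With the animal as a block, which uses the fact that both fractions came from the same lysate, Abi3 was called (-0.45, SE 0.11, adjusted p = 0.0127). Its ratio of positive to input was 4.58, 4.01, 4.47 and 5.38 in the PBS animals and 2.9, 3.55, 3.32 and 3.66 in the LPS animals, with no overlap. Clu had a difference of -0.29 (SE 0.13, adjusted p = 0.224) and Bin1 one of -0.23 (SE 0.17, adjusted p = 0.489). The fall of Bin1 in the positive fraction is therefore not shown to differ from its value in input. For Plcg2 the difference was 0.00 with a 95% interval of -0.25 to 0.25.

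After LPS, 8 of the 10 genes were called between fractions, against 53.4% of all genes tested. The 6 genes that were higher in PBS animals were higher in LPS animals too, with log2 fold changes of 3.82 for Inpp5d, 3.64 for Plcg2, 1.68 for Abi3, 0.97 for Picalm, 0.68 for Cd2ap and 0.38 for Bin1 (SE 0.09 to 0.14). Bin1 had an adjusted p of 0.00869 but overlapped between fractions, since the positive library of animal 271 (6994) lay among the input libraries and that of animal 270 (7165) just above them. The call on Bin1 was lost on the fold threshold without positive LPS library 267 (0.32) or 507 (0.29). Sorl1 was lower in the positive fraction, at 3509, 3546, 4009, 3892 and 3579 against 5865, 4427, 5530 and 5286 in input (log2 fold change -0.51, SE 0.17, adjusted p = 0.0134). Clu was lower as well, at 14654, 20211, 18119, 17482 and 17176 against 22008, 24245, 21304 and 23052 (log2 fold change -0.37, SE 0.09, adjusted p = 0.00154). Neither gene overlapped between fractions, and the call on Clu was lost on the fold threshold without positive LPS library 266 (-0.31). Ptk2b was at -0.20 (SE 0.08, adjusted p = 0.0367), under the fold threshold. Abca7 overlapped between fractions, and its log2 fold change moved from -0.25 with all libraries to -0.56 (adjusted p = 0.0472) without positive LPS library 266.

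The nearest paralogs were set beside each gene (none for Clu). Inppl1 (SHIP2) was at 0.23 (SE 0.21) for positive over input in PBS animals on the log2 scale, against 3.92 for Inpp5d, and Plcg1 at 0.05 (SE 0.13) against 3.64 for Plcg2. Abi1 (0.08, SE 0.08) and Abi2 (-0.29, SE 0.10) stood near or below 0 where Abi3 was at 2.19. Amph (0.01, SE 0.07) and Snap91 (-0.04, SE 0.07), relatives of Bin1 and Picalm best known from synapses, were level between fractions. None of these 6 was called for the fraction in PBS animals with all 17 libraries, and Abi2 was called without positive PBS library 506 (-0.39). Sh3kbp1, the relative of Cd2ap, was higher in the positive fraction (0.96, SE 0.15, adjusted p = 4.24e-05), as were Sort1 (0.44, SE 0.09, adjusted p = 0.000666) and Abca1 (0.51, SE 0.16, adjusted p = 0.014), whose relatives Sorl1 and Abca7 were not; Abca1 fell short of the call without positive PBS library 506 (0.40), and both Sort1 (0.31) and Abca1 (0.39) fell short with all 18 libraries or the deposited log2 values. Ptk2 was lower (-0.61, SE 0.09, adjusted p = 3.7e-05).

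**Figure D4:**
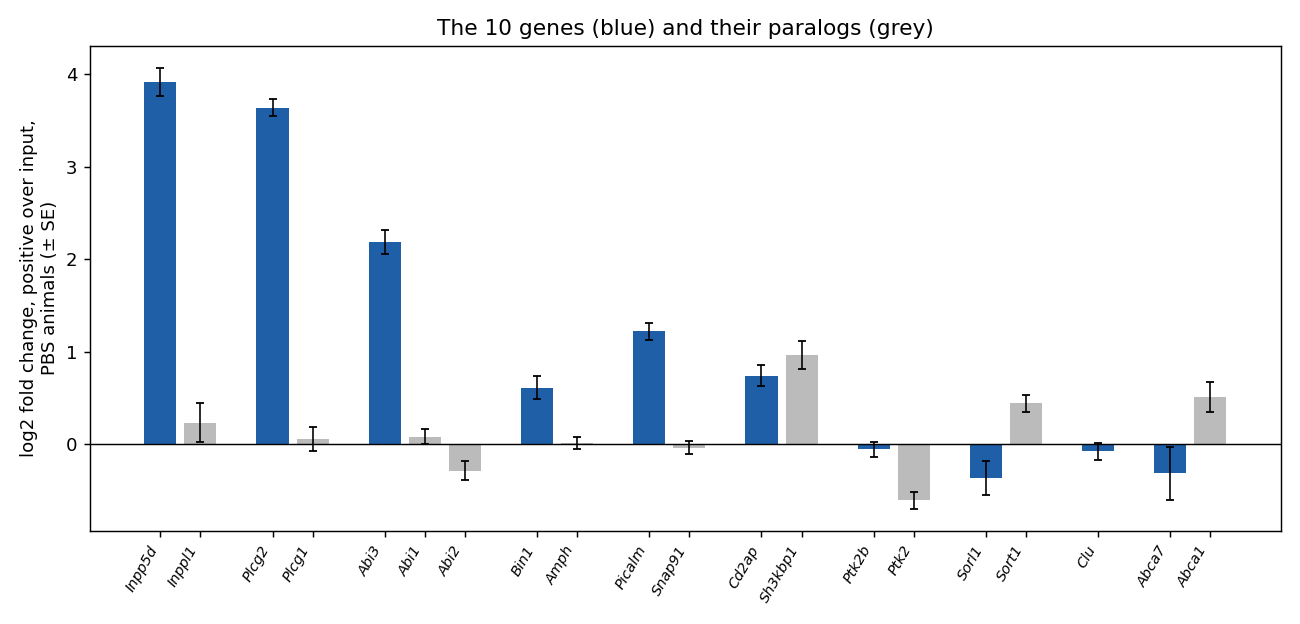
Fitted log2 fold change of positive over input in PBS animals (± SE) for the 10 genes (blue) and their paralogs (grey; none for Clu). Inpp5d, Plcg2 and Abi3 are at 2.19 to 3.92 and their paralogs at -0.29 to 0.23, whereas Sort1 and Abca1 are above Sorl1 and Abca7.

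For LPS in the positive fraction, Abca1, a cholesterol exporter, was called higher (log2 fold change 0.75, SE 0.15, adjusted p = 0.00075) and Snap91 lower (-0.38, SE 0.07, adjusted p = 0.000333). Abi1 was at 0.28 (SE 0.07, adjusted p = 0.00583), under the fold threshold and opposite in sign to Abi3. Amph was at -0.17 (SE 0.07, adjusted p = 0.0434) beside -0.57 for Bin1, and Inppl1 at -0.30 (adjusted p = 0.246). Plcg1 was at -0.26 (adjusted p = 0.0997) beside 0.45 for Plcg2. Plcg1 was called at -0.34 without LPS library 266 and at -0.34 with sex as a covariate. Abi2, Ptk2, Sort1 and Sh3kbp1 were not called, with log2 fold changes of -0.21 to -0.08.

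The genes around these members in their pathways were counted from 5 lists, none of which holds a member. Over all genes tested the median log2 fold change was 0.00 for positive over input in PBS animals and 0.01 for LPS in the positive fraction, and 39.8% and 33.8% of them were called. Of 38 genes of ITAM and phosphoinositide signalling, 28 stood higher in tagged ribosomes than in input of PBS animals and 0 stood lower (median log2 fold change 1.40), led by Hcls1 (4.33) and Ptpn6 (4.23), the phosphatase SHP-1. That is 73.7% of the list, against 39.8% of all genes tested. With LPS, 19 of the 38 rose and 3 fell in the positive fraction (57.9% called, against 33.8% of all genes; median 0.63), among them the kinase Fgr (5.41) and the adaptor Dok3 (2.22) upwards, and Rasgrp3 (-0.93) and Plcb2 (-0.80) downwards. Plcg2, not itself in the list, rose by less than its median on that scale (0.45), and Inpp5d was at 0.09.

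Of 33 tested genes of WAVE, actin and adhesion, 19 were called above input and 3 below it in PBS animals (66.7% called, against 39.8% of all genes; median log2 fold change 0.55), with Nckap1l (4.04), the haematopoietic WAVE subunit, and Was (4.02) highest, and Ptk2 (-0.61) and Nckap1 (-0.52) lowest. With LPS, 15 rose and 2 fell in the positive fraction (51.5% called, against 33.8%; median 0.28), and the ends of the range were Rac2 (2.11) and Arpc1b (1.27) against Elmo1 (-0.36) and Src (-0.34). Abi3, at -0.60, was below both genes of the list that fell. Of 35 endocytosis genes, 12 were above and 5 below input in PBS animals (Rin3 2.95 and Rin2 1.39, against Sh3gl3 -0.82 and Rin1 -0.50), and with LPS 1 rose (Rab5c, 0.56) and 4 fell, of which Itsn1 (-0.50) and Synj2 (-0.39) fell most. The shares called were 48.6% for the fraction, near the 39.8% of all genes, and 14.3% for LPS, under the 33.8% of all genes. The endocytosis medians were 0.15 and -0.12, and Bin1 was at -0.57 for LPS.

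Of 37 lipid and sorting genes, 13 were above and 4 below input (Abca9 3.44 and Npc2 1.80, against Abca2 -1.18 and Lrp8 -0.52), and with LPS 4 rose and 8 fell, with Abca1 (0.75) and Snx1 (0.67) at the upper end and Abca9 (-1.10) and Sorcs3 (-0.56) at the lower (medians 0.20 and -0.02). The shares called, 45.9% for the fraction and 32.4% for LPS, were near those of all genes tested. Of 34 tested genes in a list drawn up for other Alzheimer's disease loci, 20 were above and 5 below input. Siglech (4.36) and Ms4a7 (4.16) were highest and Slc24a4 (-0.91) and Ace (-0.51) lowest. The share called was 73.5%, against 39.8% of all genes, and the median was 0.91. Whether each listed mouse gene, Siglech included, lies at such a locus was not checked. With LPS 12 of the 34 rose and 7 fell in the positive fraction (55.9% called, against 33.8%), and the changes in Ms4a6c (3.78), Ms4a6d (3.54) and Siglech (-1.77) were larger than those of Plcg2, Abi3 and Bin1 on the log2 scale, while Il34 was at -0.43 and the list's median at 0.01. In input, calls for LPS numbered 2 of 35 for endocytosis, 15 of 38 for ITAM and phosphoinositide signalling, 5 of 33 for WAVE and actin, 2 of 37 for lipid and sorting, and 11 of 34 for the other loci. These are 5.71%, 39.5%, 15.2%, 5.41% and 32.4% of the lists, against 12.4% of all genes tested.

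Over the 17 libraries, the genes most like each member were found by Pearson's r of log2(normalised count + 1) among 12608 genes with a mean of at least 100. These values mostly follow the difference between fractions, and the libraries are not independent, since most animals gave a pair. Inpp5d was most like Kcnk6 (r = 0.997) and Tyrobp (0.996), the latter the ITAM adaptor itself, and Plcg2 most like Cyth4 and the complement gene C1qa (both 0.998). Abi3 was most like Itgb5 and Gngt2 (both 0.991), and Gngt2 overlaps Abi3 by 182 bases on the opposite strand. Picalm was most like Gng10 (0.988) and Man2b1 (0.984), Bin1 like Comtd1 (0.965) and Top1 (0.957), and Cd2ap like Gm13157 (0.965) and Tab2 (0.961). Likeness was lower for Sorl1 (Trim9 0.934, Apc 0.917), Ptk2b (Csnk1g3 0.883, Avl9 0.880) and Clu (Coq10a 0.855, Adc 0.851), whereas Abca7 was most like Clk1 (0.964) and Nsmaf (0.951).

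By the gene positions deposited with the counts (mm10 build), of the 10 genes only Clu (chr14:65968483-65981545, plus strand) and Ptk2b (chr14:66153257-66281052, minus strand) share a chromosome. They are 171711 bases apart with 5 genes between them. Abi3 (chr11:95830072-95842476, minus strand) overlaps Phospho1 by 2069 bases and Gngt2 on the opposite strand. Ptk2b contains Gm4583 on its own strand over 5844 bases, so reads there could be counted to either, and Bin1 overlaps A830052D11Rik by 1068 bases on the opposite strand. Clu and Ptk2b, at neighbouring places, each stood near a ratio of 1 between fractions in PBS animals, and in LPS animals their ratios were 0.774 ± 0.0854 and 0.879 ± 0.104 (SD, n = 4).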

How the data were processed

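RNA was from 9 Cx3cr1-NuTRAP mice, with input and positive fraction libraries made from 25 ng RNA each by a directional poly(A) protocol. The authors aligned reads to mm10 and deposited estimated counts per RefSeq gene (81.6% of nonzero values were not whole at a tolerance of 1e-6), together with log2 values they normalised with DESeq and centred on the median of input PBS. Those deposited log2 values served only as an alternative. Size factors computed with the library of 1252 counts included rested on 575 genes. Log2 values rebuilt from those factors lay within 0.01 of the deposited ones for 100% of values over 13280 genes. Counts were rounded, divided by median-of-ratios size factors (15766 genes) and tested in edgeR 4.0.16 (R 4.3.3; glmQLFit, glmQLFTest) with 1 mean for each of the 4 groups and 13 residual degrees of freedom. A gene was tested if it exceeded 20 normalised counts in every library of at least 1 group, which left 14803 of 21427 genes with a count, and all 10 genes passed. Fold changes are log2, SE is the Wald SE of the quasi-likelihood fit, and 95% intervals are ± 1.96 SE. Library totals were 22968939 to 35123345, and 3 counts are at most 1.31e-05% of a library. Counting error was not separated from the spread between animals. Some genes had low counts, such as Plcg2 in PBS input (mean 167 normalised counts, SD 14.8).

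Input and positive fraction of an animal come from 1 lysate, and their deviations from the group means correlated at 0.16 to 0.519 in 8 animals over 14803 genes, so the animal number pairs them. The block was fitted as a fixed effect in edgeR for differences between fractions, and with limma 3.58.1 voom and a random animal effect (correlation 0.445) for LPS. Other alternatives were TMM scaling, DESeq2 1.42.0, limma on log2(normalised count + 1), no filter or a filter of over 50, all 18 libraries, leaving out each library or animals 506 and 507, only the groups compared, and sex as a covariate. The scripts were tested on simulated data.

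Named genes were the 10 members, their nearest paralogs, the 2 called genes with the largest rise and fall in each of 5 pathway lists at a mean of at least 100, the 2 genes most correlated with each member, and cell markers. The members, lists and markers were chosen with earlier results of these data known. Of 39 genes listed at other loci 35 were found in the table, of 8 neuron markers 7 and of 7 monocyte markers 6; the others were not analysed here. A list of 5 RNA polymerase and reference genes had a positive to input ratio of 1.6 ± 0.117 with PBS and 2.2 ± 0.243 with LPS (SD, n = 4), a sum led by Actb. The monocyte markers had one of 8.99 ± 2.93 and 6.93 ± 0.291 (SD, n = 4). Of their sum F13a1, also a border macrophage marker, made up most (mean 1868 of 2120 in positive PBS).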

Additional observations from a re-analysis of the deposited data

Results flagged for a closer look

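Abca7 stood apart in the positive fraction of PBS animal 268, at 1351 normalised counts against 695 to 782 in the other 3 libraries of that group. The gap to the nearest library was 0.867 of the whole range, above the 95% critical value of Dixon's test for a group of 4. This was the only such case in 40 groups of 4 or 5 libraries tested for the 10 genes, where chance alone gives about 1 in 20. In input the same animal was also the highest of its group for Abca7, at 1431 against 912 to 1122.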

How the results depend on the processing

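Leaving out 1 library at a time gave 3 to 5 of the 10 genes called for LPS in the positive fraction (5 without LPS library 270), 1 to 2 in input (all genes 1452 to 1979), and 0 for the difference between fractions (all genes 749 to 1263). In input 2 genes were called with DESeq2 and with only the groups compared (Plcg2 and Bin1), and all genes called fell from 1839 to 1083 without animals 506 and 507. For the difference, all genes called fell from 1018 to 323 without these animals, while the replicate block gave 1915 and 1 of the 10 genes (Abi3). The block changed the calls given beside Abi3 and Sorl1 and no other call on the 10 genes. Plcg2, Bin1 and Abi3 for LPS in the positive fraction kept their direction and call in every alternative run, at 0.41 to 0.51, -0.65 to -0.49 and -0.65 to -0.52. The call on Bin1 between fractions in LPS animals was lost with all 18 libraries (0.31), without animals 506 and 507 (0.29) and with the deposited log2 values (0.25). That on Sorl1 in PBS animals was gained with all 18 libraries (-0.50), with sex as a covariate (-0.36) and without positive library 268 (-0.48) or input library 272 (-0.53).

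Values near 0 changed sign, and the cause was not tested. Without animals 506 and 507, Abi2 was at 0.01 for LPS in the positive fraction, Sorl1 at 0.05 for LPS in input and Abca7 at -0.05 for the difference. For positive over input in PBS animals, all 18 libraries and the deposited log2 values gave -0.12 and -0.11 for Amph, -0.07 and -0.08 for Plcg1, and -0.05 and -0.05 for Abi1. These settings share a scaling that rests on 575 genes, against 15766 in the main fit. They are therefore not independent checks, here or for the calls on Bin1, Sort1, Abca1, Abi1 and Abi2. The difference of Plcg2 was 0.01 with TMM and with limma, 0.02 with all 18 libraries, 0.00 with sex and 0.03 with the deposited log2 values, and that of Abca7 -0.03 with limma and -0.01 with the deposited values. Leaving out 1 library moved the difference of Plcg2 over -0.07 to 0.06, of Abca7 over -0.24 to 0.32, of Cd2ap over -0.13 to 0.05 and of Sorl1 over -0.27 to 0.02. In the positive fraction LPS values ran from 0.00 to 0.18 for Inpp5d, -0.11 to 0.01 for Clu, -0.07 to 0.49 for Abca7 and -0.13 to 0.02 for Abi2, and in input from -0.24 to 0.05 for Sorl1. Positive over input in PBS animals ran from -0.01 to 0.04 for Amph, -0.06 to 0.00 for Snap91 and -0.07 to 0.13 for Plcg1. Groups held 4 or 5 libraries. The p-values of the main fit rest on the spread over all 17 libraries, which came from 9 animals and were taken as independent. Levels per kilobase were given for a single exon model.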

Other observations

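Sorl1 was split by sex in the PBS animals. In input the females 268 and 506 were at 7025 and 7003 normalised counts and the males 272 and 273 at 3688 and 4594. In the positive fraction the females were at 5270 and 4902 and the males at 3654 and 3405. After LPS the male 267 was the lowest of the input libraries, at 4427 against 5286 to 5865 in the females, but in the positive fraction its 3546 lay within the 3509 to 4009 of the 4 females. Inpp5d and Picalm showed the same order in the positive fraction of PBS animals, at 7771 and 7837 against 5924 and 5316 for Inpp5d and at 12417 and 12051 against 9224 and 10162 for Picalm, with females higher. In PBS input Picalm was at 4766 and 4713 in females and 4860 and 4459 in males, which overlapped. Abi3 and Bin1 had the opposite order in PBS input. Males were at 922 and 862 against 718 and 698 in females for Abi3, and at 9507 and 8886 against 7906 and 7798 for Bin1. In the positive fraction of PBS animals the sexes overlapped for both genes. With sex as a covariate, LPS in the positive fraction was at -0.55 for Abi3 and -0.53 for Bin1. These values were picked out after they were seen, sex was not tested as an effect, and 2 animals of each sex in the PBS group are too few for an exact test to reach the threshold.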
